A study of Mus musculus with 8 samples.

Results

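The BCL2 family decides at the mitochondrial outer membrane whether a cell under stress lives or dies. Survival members such as BCL2, BCL-XL, MCL1 and A1 bind and hold back their relatives, the effectors BAX and BAK can open pores in that membrane and release cytochrome c, and the BH3-only proteins carry the death signal to both. Microglia, the resident macrophages of the brain, depend on signaling through the CSF1 receptor for survival, and A1 is known as a survival protein of myeloid cells. The transcripts of 10 genes of this family are described here, among the 20308 genes measured. The cells are CD11b+ cells of mice that overexpress CSF1 and of control mice. The 10 genes are well-known survival and death genes, chosen by name with earlier results of these data known. The survival genes are Mcl1, Bcl2l1 (BCL-XL), Bcl2 and the A1 paralogs Bcl2a1a, Bcl2a1b and Bcl2a1d, the effector genes are Bax and Bak1, and the BH3-only genes are Bcl2l11 (BIM) and Bbc3 (PUMA).

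The CSF1 OE mice make the secreted form of the growth factor CSF1 in a subset of GFAP+ cells through the TRE/tTA transgene system, and both genotypes were C57Bl/6 X CD1 F1 mice aged p14 or p15 (14 or 15 days). Which of the transgenes the controls carried is not given in the sources used here, nor is the sex of the mice. CD11b is a surface protein of microglia that other myeloid cells also carry, and cells were taken from the right hemisphere with magnetic beads against it after myelin removal. Each of 4 control mice (animal numbers 1827, 1872, 1874 and 1934) and 4 CSF1 OE mice (1931, 1932, 1936 and 2019) gave 1 library, and values per mouse are listed in this order throughout. The question is whether transcripts of survival and death genes differ between the genotypes.

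Total counts ranged from 12053280 to 15475488 per library. Summed microglial markers, given in CPM (counts scaled to library size), lay between 21651.3 and 37803.8 in control and between 27793.7 and 38719.6 in CSF1 OE mice, and all 9 markers were detected. Csf1 itself lay between 139 and 364 CPM in control and between 167 and 400 CPM in CSF1 OE mice (log2 fold change 0.19, edgeR adjusted p = 0.796), so the transgene, which is driven in cells that the beads do not select, gave no check of the genotype labels. A gene was called where the quasi-likelihood test of edgeR gave an adjusted p under 0.05 over all genes tested and a fold change below 0.7 or above its rounded inverse. By this rule 59 of 13407 genes tested, or 0.44%, were called.

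None of the 10 genes was called, and all 10 passed the filter on low counts. The transcripts furthest apart between the genotypes were those of the A1 paralogs, with fitted levels 2.18 to 3.6 times as high in CSF1 OE mice, while the fitted levels of Bcl2, Bax and Bcl2l11 differed from control by -1.75%, 3.95% and -4.08%. Of the 10 genes, 7 had a higher and 3 a lower fitted level in CSF1 OE mice, and the median log2 fold change was 0.31, against -0.034 over all genes tested. An unadjusted p under 0.05 in edgeR was given by 5 of them (Bcl2a1a, Bcl2a1b, Bcl2a1d and Bak1 higher, Bcl2l1 lower), where 16.5% of all genes had one. The A1 paralogs share reads, so the 10 genes are not independent of each other in these counts and in the median. Bcl2a1a was the only one of the 10 whose values in the genotypes did not overlap, and it was higher in CSF1 OE mice, as were 6.84% of all genes tested, while none of the 10 lay apart in the lower direction, as 3.45% did. With the Wald test of DESeq2, which called 3.27% of its genes, the 3 A1 paralogs were called higher, and limma on the authors' normalized values, which called 0.776%, called Bcl2a1a. In bulk RNA, fewer cells of a type and less RNA per cell cannot be told apart.

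**Figure D1:**
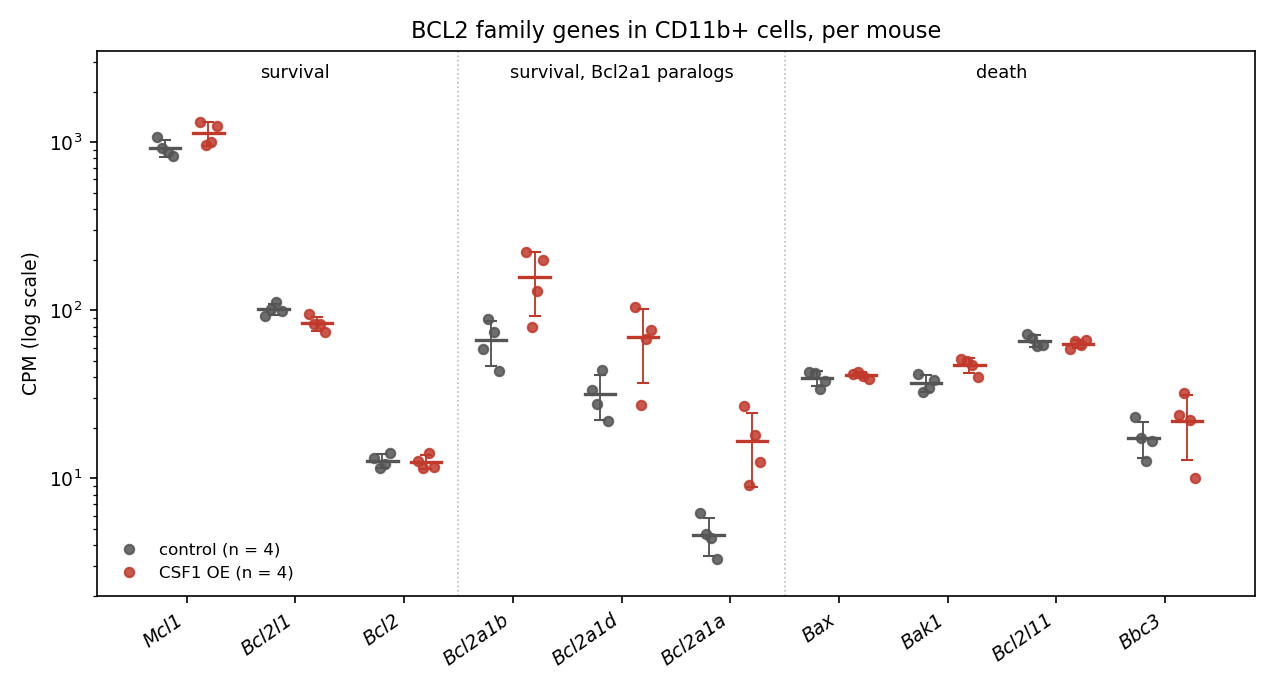
CPM on a log scale for the 10 genes in each mouse, with control in gray and CSF1 OE in red (n = 4 each); bars give the mean and whiskers the SD. The genotypes separate fully for Bcl2a1a, whose level depends on the division of shared reads. For Bcl2, Bax and Bcl2l11 the genotypes lie on top of each other.

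Mcl1, which encodes a short-lived survival protein, was the most abundant of the genes. It lies on chromosome 3 (GRCm38, bases 95658788 to 95663176, plus strand) and had 1074.4, 929, 877 and 830 CPM in control and 1323.7, 957, 1000.7 and 1253 CPM in CSF1 OE mice. Mice 1931 and 2019 were above every control, while mice 1932 and 1936 lay below control 1827. Its expected count was not whole in any of the 8 libraries, so some of its reads also fitted other genes. The log2 fold change was 0.29 (SE 0.143, 95% interval -0.03 to 0.61, edgeR adjusted p = 0.351).

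Bcl2l1 encodes BCL-XL, a survival protein that binds BAX, BAK and many BH3-only proteins (chromosome 2, bases 152780668 to 152831728, minus strand). Its levels were 92.8, 102, 112 and 98.4 CPM in control and 94.4, 82.7, 82.3 and 74.4 CPM in CSF1 OE mice. The 3 mice 1932, 1936 and 2019 were below every control, and mouse 1931 was between the controls 1827 and 1934. It had the lowest fold change of the 10, with a log2 value of -0.28 (SE 0.0928, 95% interval -0.49 to -0.07), and an edgeR p of 0.0149 that became 0.195 after adjustment.

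Bcl2, the founding survival gene of the family (chromosome 1, bases 106538178 to 106714274, minus strand), gave the closest match between genotypes. Controls had 13.2, 11.5, 12.1 and 14.1 CPM and CSF1 OE mice 12.7, 11.5, 14.2 and 11.7 CPM, so that the ranges covered each other almost entirely. The log2 fold change of -0.03 had a 95% interval from -0.31 to 0.26 (SE 0.128, edgeR adjusted p = 0.934), which as a fold runs from 0.804 to 1.2.

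The A1 paralogs are recent copies of 1 gene, and their sequences decide how well reads can be told apart. All lie on chromosome 9: Bcl2a1d at bases 88723285 to 88731914 (minus strand), Bcl2a1a at 88956900 to 88962419 and Bcl2a1b at 89199209 to 89207827 (plus strand). Bcl2a1c, a shorter copy that is not among the 10 genes, lies at 114330135 to 114330578 (plus strand). The first 90 coding bases, all in the first coding exon of the GENCODE M21 models (GRCm38), are shown because they give the scale of the likeness, with the 6 positions at which the 4 copies differ in capitals:
Bcl2a1b (chr9:89199360-89199449, plus strand): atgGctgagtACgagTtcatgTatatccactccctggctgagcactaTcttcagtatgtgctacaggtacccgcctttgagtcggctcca
Bcl2a1d (chr9:88731630-88731719, minus strand): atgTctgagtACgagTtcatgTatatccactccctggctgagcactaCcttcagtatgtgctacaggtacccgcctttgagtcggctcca
Bcl2a1a (chr9:88957051-88957140, plus strand): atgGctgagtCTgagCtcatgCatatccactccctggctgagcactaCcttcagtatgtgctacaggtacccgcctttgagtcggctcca
Bcl2a1c (chr9:114330156-114330245, plus strand): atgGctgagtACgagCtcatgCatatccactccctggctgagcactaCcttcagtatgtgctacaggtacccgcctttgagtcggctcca
In this stretch Bcl2a1d differs from Bcl2a1b at 2 positions, Bcl2a1c at 3 and Bcl2a1a at 5.

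Over their aligned transcripts, Bcl2a1b was identical to Bcl2a1d at 99.1% and to Bcl2a1a at 98.2% of bases, and Bcl2a1d to Bcl2a1a at 98.8%. Of all windows of 100 bases, which is shorter than a read, 31.1% of those in Bcl2a1b, 54.7% in Bcl2a1d and 43.5% in Bcl2a1a occur unchanged in another copy, and none of those in Bcl2a1c. RSEM splits ambiguous reads among the candidate genes, and the expected counts of Bcl2a1a, Bcl2a1b and Bcl2a1d were not whole numbers in any of the 8 libraries. Their sum with Bcl2a1c was within 0.1 of a whole number in 6 libraries and within 0.27 in all, so nearly all of this division took place among the 4 copies. Levels of single copies therefore depend on the division, and the sum over the copies does not.

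The summed Bcl2a1 level was 99.2, 123, 125 and 69.4 CPM in control and 359, 118, 219 and 292 CPM in CSF1 OE mice. Mice 1931, 1936 and 2019 stood above every control, and mouse 1932 lay among the controls. The means were 104 ± 25.9 and 247 ± 104 CPM (SD, n = 4 each), a 2.38-fold difference. On the log2 scale this was 1.25 (SE 0.324, 95% interval 0.52 to 1.98), with an edgeR p of 0.00386 and an adjusted p of 0.113, so it was not called. DESeq2 called the sum at an adjusted p of 0.00503.

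Bcl2a1b made up most of the sum, from 59.3% to 72.3% of it in control and from 59.5% to 68.4% in CSF1 OE mice. Its levels were 58.8, 88.8, 74.6 and 43.2 CPM in control and 222, 80.0, 130 and 200 CPM in CSF1 OE mice, with all but mouse 1932 above every control. The log2 fold change was 1.25 (SE 0.329, edgeR adjusted p = 0.117).

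Bcl2a1d took from 22.5% to 35.2% of the sum over the 8 mice. It had 33.3, 27.7, 43.9 and 21.8 CPM in control and 105, 27.4, 67.3 and 76.4 CPM in CSF1 OE mice, and again only mouse 1932 fell within the controls. The log2 fold change was 1.13 (SE 0.369, edgeR adjusted p = 0.189).

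Bcl2a1a was the rarest of the 3, with 3.53% to 6.26% of the sum in control and 4.27% to 8.27% in CSF1 OE mice. It had 6.18, 4.63, 4.39 and 3.31 CPM in control and 26.9, 9.18, 18.1 and 12.5 CPM in CSF1 OE mice, from expected counts of 55.5 to 327.63. Every CSF1 OE mouse was above every control, mouse 1932 included, although its summed Bcl2a1 level lay among the controls. In mouse 1932 this copy took 7.83% of the sum. The level of a single copy depends on the division of reads, so this separation does too. The fold change was 3.6 (95% interval 2.1 to 6.16), or 1.85 on the log2 scale (SE 0.343), with an edgeR p of 0.000434 and an adjusted p of 0.0558. DESeq2 gave an adjusted p of 2.4e-05 and limma of 0.0486.

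Bcl2a1 transcripts are also known from neutrophils. Summed neutrophil markers (10 of 11 listed genes in the files) ran from 62.3 to 153 CPM in control and from 32 to 261 CPM in CSF1 OE mice. The highest neutrophil sum was in mouse 2019 and the lowest in mouse 1931, which were the mice with the highest Bcl2a1 sums. Monocyte markers summed to between 42.0 and 56.7 CPM in control and to between 43.9 and 81.1 CPM in CSF1 OE mice. Endothelial, red blood cell, oligodendrocyte and neuron signals were lowest in the same pair of mice. This did not hold for astrocyte, oligodendrocyte precursor or mural cell markers. Oligodendrocyte markers summed to 2903.4 CPM in mouse 1931 and 1609.2 CPM in mouse 2019, against 2946.8 to 6164.9 CPM in the other 6. Neuron markers summed to 82.6 and 43.8 CPM, against 88.7 to 347 CPM. Endothelial markers summed to 539 CPM in mouse 1931 and 344 CPM in mouse 2019, against 679 to 1207.5 CPM in the other 6, and red blood cell transcripts to 51.2 and 38.5 CPM, against 229 to 936 CPM. Border macrophage markers summed to 1252.5 to 1871.4 CPM in CSF1 OE and 1557.3 to 2476.8 CPM in control mice. All 7 had a lower fitted level in CSF1 OE mice (median log2 fold change -0.47), and none was called in edgeR. Of the 7, 5 were lower at an unadjusted p under 0.05 in edgeR, as were 863 of all 13407 genes tested. The part of these cells in the Bcl2a1 levels was not tested.

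The mice were split into 2 sets by animal number, and the sets overlap with genotype. The first, 1931 to 1936, holds 1 control and 3 CSF1 OE mice. The second holds all other numbers, which are the 3 controls 1827, 1872 and 1874 and the CSF1 OE mouse 2019. These lie on both sides of the first set, so the second set is not a range of its own. The Bcl2a1 sum was 3.34 times as high in CSF1 OE mice within the first set and 2.53 times within the second. In each set all CSF1 OE mice were above all controls, mouse 1932 included. The same held for each of the 3 copies, with ratios between 2.19 and 5.45. Mcl1 was 1.32 and 1.3 times as high, with all CSF1 OE mice above all controls in each set. Bcl2l1 was 0.879 and 0.728 times as high, with all below. Over all mice, the values of Mcl1 and of Bcl2l1 overlapped between the genotypes. Bcl2 and Bcl2l11 did not lie apart in either set. Bax and Bak1 lay apart only in the first set, where they were higher in CSF1 OE mice. Bbc3 lay apart in opposite directions in the 2 sets. The only control in the first set was 1934, which had the lowest Bcl2a1 sum of all mice (69.4 CPM). Mouse 1932 (118 CPM) lay below controls 1872 and 1874 of the other set. The only CSF1 OE mouse in the second set was 2019. With only 1 mouse of 1 genotype in each set, the genotypes come to lie apart easily. How many of all genes lie apart in this way in both sets was not counted, so no conclusion is drawn from these separations. A fit with a term for the set called 9.5% of all genes, and among the 10 it called Bcl2a1a and Bcl2a1b (adjusted p = 0.0323 and 0.0279 in edgeR). The labels do not say what the numbers stand for beyond the animal.

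The DNA before the starts of the A1 copies is shown in 70-base stretches (RefSeq promoters, GRCm38.p6). All 4 copies hold the core of PU.1 sites, GAGGAAGT, and 3 match a loose AP-1 pattern, TGANTCA, where N is any base. Both are in capitals, and the open base of the AP-1 pattern is A in all 3 matches. PU.1 is a master factor of macrophages, and AP-1 is formed by FOS and JUN proteins:
Bcl2a1b (chr9:89199095-89199164, plus strand): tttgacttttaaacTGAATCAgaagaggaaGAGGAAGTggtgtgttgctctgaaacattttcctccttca
Bcl2a1d (chr9:88731915-88731984, minus strand): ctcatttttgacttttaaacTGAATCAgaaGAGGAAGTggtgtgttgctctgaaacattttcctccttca
Bcl2a1a (chr9:88956786-88956855, plus strand): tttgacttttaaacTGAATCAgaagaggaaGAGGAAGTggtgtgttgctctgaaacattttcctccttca
Bcl2a1c (chr9:114329891-114329960, plus strand): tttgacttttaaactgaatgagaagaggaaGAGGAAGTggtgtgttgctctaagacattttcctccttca
The PU.1 core began 148 bases before the RefSeq start of Bcl2a1b, 104 before those of Bcl2a1d and Bcl2a1a, and 214 before that of Bcl2a1c. The RefSeq starts of Bcl2a1b, Bcl2a1d and Bcl2a1a differ from the GENCODE starts given above, so these distances depend on the start used. The stretches of Bcl2a1b and Bcl2a1a are the same in every letter. The AP-1 letters, which do not overlap the PU.1 core, began 164, 114 and 120 bases before the starts of Bcl2a1b, Bcl2a1d and Bcl2a1a.

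Searched on both strands from 250 bases before to 50 bases after the start, the PU.1 core was in the promoters of Bcl2a1a, Bcl2a1b, Bcl2a1d and Bak1 and in 3.2% of all 32851 promoters. The AP-1 letters were in Bcl2a1a, Bcl2a1b and Bcl2a1d and in 7.81% of all. The NF-kB consensus was matched in Bbc3 and Bcl2l1 (8.46% of all) and the E-box CACGTG in Bax and Bbc3 (7.15%). These matches describe letters only, the copies are not independent of each other, and the motifs were chosen with the levels known. Immediate early genes, which include the FOS and JUN genes, summed to between 10161.3 and 17569.9 CPM in control and to between 10206.5 and 13842.7 CPM in CSF1 OE mice, with none of 13 called in edgeR and none at an unadjusted p under 0.05.

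The effectors open the mitochondrial outer membrane. Bax (chromosome 7, bases 45461697 to 45466898, minus strand) had 43.1, 42.5, 34.2 and 37.9 CPM in control and 41.7, 42.9, 40.5 and 38.9 CPM in CSF1 OE mice, all of the latter within the control range. Its log2 fold change was 0.06 (SE 0.0946, 95% interval -0.16 to 0.27, edgeR adjusted p = 0.789).

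Bak1 (chromosome 17, bases 27019810 to 27029009, minus strand) had 42.0, 32.7, 34.5 and 38.4 CPM in control and 51.6, 50.1, 47.0 and 40.3 CPM in CSF1 OE mice. Mice 1931, 1932 and 1936 were above every control, and mouse 2019 was below control 1827. The log2 fold change was 0.36 (SE 0.113, 95% interval 0.10 to 0.61), with an edgeR p of 0.0114 and an adjusted p of 0.175. Bak1 overlaps Ggnbp1 on the other strand, and the libraries do not keep strand, but Ggnbp1 was counted at 4.54 to 6.09 CPM in all 8 mice with a log2 fold change of -0.09. Bcl2, Bax, Bcl2a1b and Bcl2a1d also overlap annotated genes, none of which is in the tables used here.

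The BH3-only genes respond to loss of growth factors and to damage. Bcl2l11, which encodes BIM and is induced when survival signals are withdrawn (chromosome 2, bases 128126038 to 128162547, plus strand), had 71.8, 68.3, 61.5 and 61.7 CPM in control and 58.4, 65.5, 62.2 and 66.6 CPM in CSF1 OE mice. All but mouse 1931 lay within the controls, and the log2 fold change was -0.06 (SE 0.0812, 95% interval -0.24 to 0.12, edgeR adjusted p = 0.739).

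Bbc3, which encodes PUMA, a p53 target (chromosome 7, bases 16308393 to 16318205, plus strand), was the most uneven of the death genes. It had 23.0, 17.4, 12.6 and 16.6 CPM in control and 23.7, 32.2, 22.1 and 10 CPM in CSF1 OE mice, where both the highest and the lowest of all 8 values occurred. The log2 fold change of 0.34 had an interval from -0.38 to 1.06 (SE 0.32, edgeR adjusted p = 0.624). Within the 2 sets of animal numbers the ratio was 1.56 and 0.567, in opposite directions.

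**Figure D2:**
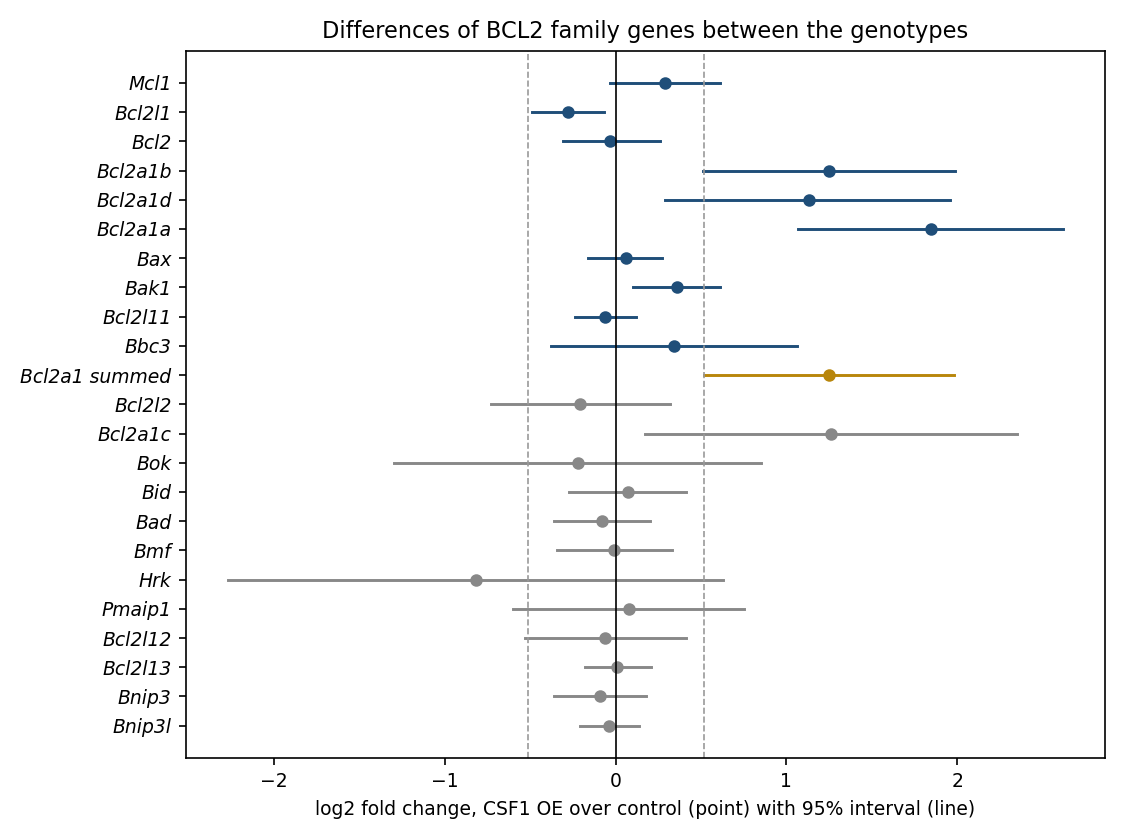
Log2 fold change of CSF1 OE over control (points) with 95% intervals of the edgeR fit (lines) for the 10 genes in blue, the summed Bcl2a1 level in yellow and the other tested family genes in gray; dashed lines mark the fold thresholds. The Bcl2a1 copies lie beyond the upper threshold, and the other 7 genes lie between the thresholds.

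Levels of different genes were compared per length, as CPM per kb of the longest protein-coding GENCODE transcript. Mcl1 stood first with 271 ± 30.9 CPM per kb in control mice (SD, n = 4), rank 169 of 12781 genes, followed by Bcl2a1b (81.2 ± 24.1), Bax (45.5 ± 4.83), Bcl2l1 (39.4 ± 3.09), Bcl2a1d (36.7 ± 10.9), Bak1 (15.5 ± 1.74), Bcl2l11 (13.1 ± 1.01), Bbc3 (9.59 ± 2.38), Bcl2a1a (5.65 ± 1.45) and Bcl2 (1.77 ± 0.164). In control mice the ranges of Bax, Bcl2l1 and Bcl2a1d overlapped as neighbors, as did those of Bak1 and Bcl2l11, of Bcl2l11 and Bbc3, and of Bbc3 and Bcl2a1a, while Mcl1, Bcl2a1b and Bcl2 each stood clear of their neighbors. In CSF1 OE mice Mcl1 had 332 ± 53.2, Bcl2a1b 193 ± 79.5, Bcl2a1d 80.1 ± 37.3 and Bcl2a1a 20.3 ± 9.48 CPM per kb, and Bcl2 remained last at 1.74 ± 0.172. The middle of the order depends on the transcript chosen: on its shortest protein-coding transcript Bcl2l11 would be at 98.0 CPM per kb in control mice. Mcl1 is first and Bcl2 last (4.48) on the shortest transcripts as well.

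Per length, the 6 survival genes together reached 470, 460, 449 and 365 CPM per kb in control and 852, 455, 586 and 745 CPM per kb in CSF1 OE mice. Mcl1 made up between 57.1% and 66.8% of this pool in control mice, and 45.4%, 61.6%, 49.9% and 49.2% in the CSF1 OE mice. The 3 A1 copies made up 22.5% to 32.8% in control and 50%, 31.0%, 44.3% and 46.7% in CSF1 OE mice. Bcl2l1 made up 7.69% to 10.5% in control and 3.89% to 7.09% in CSF1 OE mice, shares that did not overlap although its CPM did, as they are taken of a pool that also holds the A1 copies. On the shortest transcripts, a choice made after seeing the data, the A1 copies made up only 7.41% to 11.9% in control and 10.8% to 21.1% in CSF1 OE mice, and Mcl1 82.9% to 87.9% and 76.2% to 85.5%, so the size of these shares depends on the transcript chosen. The 4 death genes summed to 73.1 to 94.3 CPM per kb in control and 80.5 to 101 CPM per kb in CSF1 OE mice. The ratio of survival to death transcripts was 4.99, 5.35, 6.15 and 4.5 in control and 9.03, 4.49, 6.45 and 9.26 in CSF1 OE mice, with mouse 1932 level with the lowest control and the other CSF1 OE mice above every control. On the shortest transcripts it ran from 5.8 to 6.88 in control and from 5.82 to 9.67 in CSF1 OE mice. The ratio of Bcl2 to Bax was 0.0325 to 0.045 in control and 0.0322 to 0.0422 in CSF1 OE mice.

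**Figure D3:**
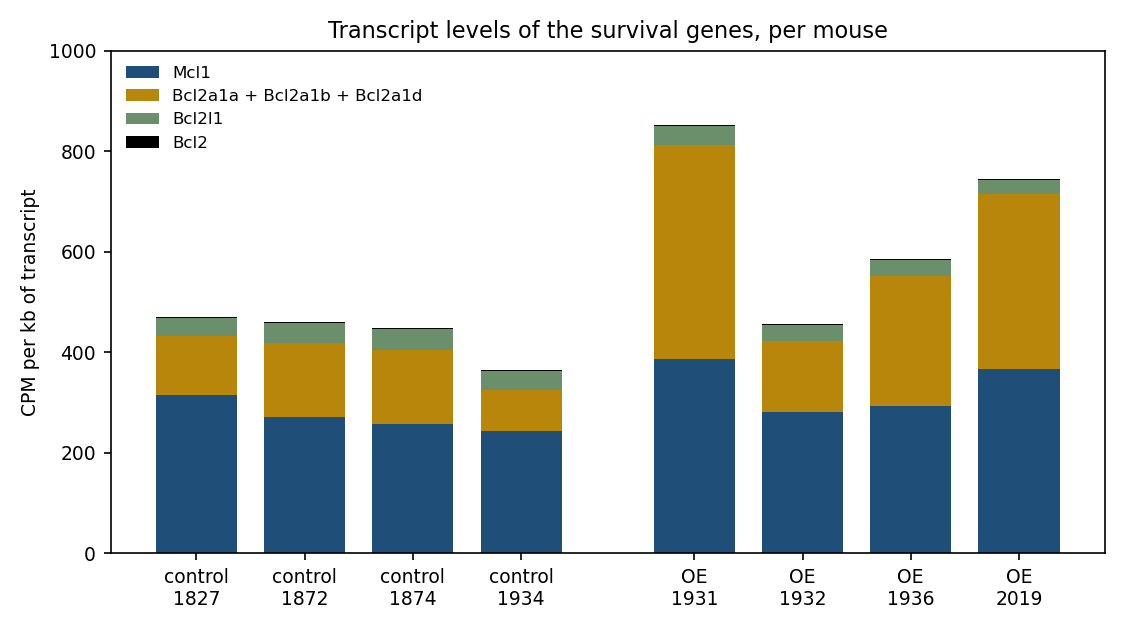
CPM per kb of the longest transcript of the survival genes, stacked for each mouse: Mcl1 in blue, the 3 A1 copies together in yellow, Bcl2l1 in green and Bcl2 in black. The yellow part is 141 to 426 CPM per kb in CSF1 OE and 82.1 to 148 in control mice, and mouse 1932 resembles the controls.

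Of 16 further family genes, 12 could be tested, 4 of them with a higher and 8 with a lower fitted level in CSF1 OE mice, and none was called in edgeR. The highest fold change was that of Bcl2a1c, with 0.873, 1.66, 1.81 and 1.12 CPM in control and 5.26, 0.955, 3.27 and 3.63 CPM in CSF1 OE mice (log2 fold change 1.26, SE 0.481, adjusted p = 0.244 in edgeR). Mouse 1932 was again among the controls. Bcl2a1c has no such window of 100 bases in common with the other copies, and its expected count was not whole in 2 of 8 libraries.

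Among the other BH3-only genes, Bid, which links death receptors to mitochondria, had a log2 fold change of 0.07, Bad, a target of survival kinases, of -0.08, and Bmf of -0.01. Pmaip1 (NOXA), which binds MCL1, had 145, 135, 114 and 179 CPM in control and 103, 260, 141 and 101 CPM in CSF1 OE mice. The highest Pmaip1 level was in mouse 1932, which was also the highest for Bbc3. Hrk had the lowest fold change at -0.82 (SE 0.641), at 0.354 to 4.2 CPM.

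The survival gene Bcl2l2 (BCL-W) had a log2 fold change of -0.21 and the effector relative Bok of -0.22, both with intervals across 0. Bcl2l12 was at -0.06, Bcl2l13 at 0.01, and the mitophagy receptors Bnip3 and Bnip3l at -0.09 and -0.04. Bcl2l10 had no count in any library, and Bik, Bcl2l14 and Bcl2l15 had at most 0.692 CPM and were not tested.

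No gene of the 9 further lists of the pathway was called in edgeR. Downstream of the mitochondria, 9 of 14 apoptosome and caspase genes had a higher and 5 a lower fitted level in CSF1 OE mice (median log2 fold change 0.16), with Casp2 the lowest at -0.19. Of 7 IAP genes, which encode caspase inhibitors and the related NAIP sensors, 6 were higher and 1 lower (median 0.37). They ran from Naip2 at 0.53 (SE 0.182, adjusted p = 0.204 in edgeR) to Birc2 at -0.11. The 3 with an unadjusted p under 0.05 in edgeR were all NAIP genes, where 16.5% of all genes tested had such a p. The list median is the value of 1 of them, Naip6. Whether the NAIP genes share reads was not checked. Of 5 inflammatory caspase genes 4 were higher and 1 lower (median 0.4). Casp4, the mouse sensor caspase for bacterial lipopolysaccharide, had 12.1, 12.5, 9.6 and 13.6 CPM in control and 30.7, 17.6, 25.5 and 19.1 CPM in CSF1 OE mice. Its values did not overlap, which held in the higher direction for 6.84% of all genes tested. Its log2 fold change was 0.96 (SE 0.197, adjusted p = 0.0634 in edgeR), and Casp12 was at -0.29.

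The death receptor genes were split 6 higher to 4 lower (median 0.03), from Mlkl, the executor of necroptosis, at 0.39 to Tnfrsf10b at -0.49. The p53 pathway genes, with 5 higher and 7 lower (median -0.071), ran from Eda2r at 0.35 to Phlda3 at -0.79. The NF-kB feedback genes, with 7 higher and 3 lower (median 0.24), ran from Nfkbia, the inhibitor that NF-kB induces, at 0.48 to Cd40 at -0.24. The FOXO and survival kinase genes, with 4 higher and 6 lower (median -0.032), ran from Pim1 at 0.41 to Pim2 at -0.39. The genes of MCL1 turnover, 3 higher and 3 lower (median -0.007), ran from Usp9x, a deubiquitinase of MCL1, at 0.08 to Usp13 at -0.65. The outer membrane partners, 9 higher and 2 lower (median 0.16), ran from Bag1 at 0.48 (SE 0.113, adjusted p = 0.0899 in edgeR) to Bag3 at -0.43, which was at 215 CPM in mouse 1932 and at 39.8 to 170 CPM in the others. An unadjusted p under 0.05 in edgeR was given by 14 of the 85 genes in these 9 lists, where 16.5% of all genes tested had one.

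**Figure D4:**
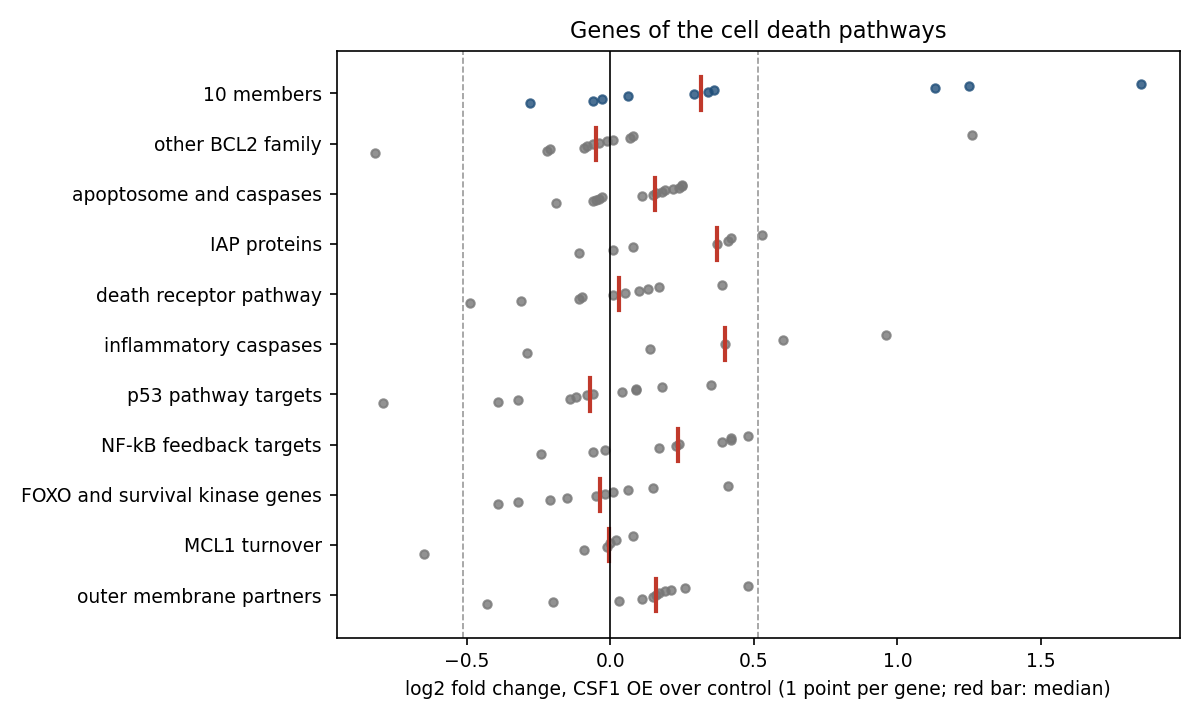
Log2 fold change of CSF1 OE over control for each tested gene (points) of the 10 described genes (blue) and of the pathway lists (gray), with the median of each list as a red bar and the fold thresholds as dashed lines. The 3 A1 copies and Bcl2a1c lie furthest to the right, and most other points lie between the thresholds.

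The genes whose pattern over the 8 mice was closest to the Bcl2a1 sum were Dusp2, Plaur and Nab2, with root mean square differences of 0.223, 0.259 and 0.275 in centered log2 CPM, where the sum itself varied by 0.764. Dusp2 encodes a phosphatase of MAP kinases, Plaur the urokinase receptor and Nab2 a corepressor of EGR factors. Their log2 fold changes were 1.11, 1.16 and 0.84, and none was called in edgeR (adjusted p = 0.149, 0.101 and 0.207). Closest to Mcl1, which varied by 0.223, were Trmt61a (0.0679), Itgb1bp1 (0.0688) and Tmem164 (0.0692). Closest to Bcl2, which varied by 0.118, were Pop5 (0.0577), Swsap1 (0.068) and Sept8 (0.0686). These were the nearest of 13396 genes, with no test.

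Markers of cells other than macrophages were present in all libraries. Summed levels in control and CSF1 OE mice ran from 2946.8 to 6164.9 and from 1609.2 to 5007.6 CPM for oligodendrocytes, from 140 to 279 and from 75.1 to 298 CPM for their precursors, from 370 to 681 and from 316 to 716 CPM for astrocytes, from 88.7 to 347 and from 43.8 to 206 CPM for neurons, and from 136 to 288 and from 129 to 241 CPM for mural cells. T and NK cell markers stayed between 0.269 and 2.05 CPM, with Ncr1 at 0 in every library, and B cell markers between 7.93 and 19.7 CPM, with Pax5 at 0. The part of these cells in the levels of the 10 genes was not tested.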

How the data were processed

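RNA of CD11b+ brain cells from 4 control and 4 CSF1 OE mice was sequenced from a TruSeq v2 kit that does not mark strand, as paired reads. The authors demultiplexed with bcl2fastq 1.8.4, mapped with Bowtie 1.0.0 and assigned reads with RSEM 1.2.7, per the submitters' processing notes, which name mm10. The annotation is not given in the sources used here. The deposited expected counts per gene are not normalized. The deposited normalized table, a signal on the count scale, holds the authors' expected counts divided by 1 size factor per library.

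Expected counts were rounded and fitted with edgeR 4.0.16 under R 4.3.3, using filterByExpr, TMM, the quasi-likelihood test and Benjamini-Hochberg adjustment. The fold thresholds follow the study, whose count model EBSeq was not run here. CPM used TMM-scaled totals, and 3 counts correspond to 0.177 to 0.266 CPM. The common biological coefficient of variation was 0.228. The Bcl2a1 sum was fitted in a table where it replaces its 4 symbols. Alternatives used DESeq2 1.42.0, limma 3.58.1 (pseudocount 1), other factors, filters and priors, a term for animal numbers, and each mouse left out in turn. On simulated data with 200 of 13332 genes changed 2-fold, edgeR recovered 70.5%, with 3.42% false calls. The simulated variation followed expression level alone and left out gene-specific variation, so these rates need not hold for the real counts.

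The 10 genes and all lists were chosen with earlier results of these data known. Named are all family genes and, of each further list, the genes with the highest and lowest fold change and any called, apart from 1 gene that is not reported here. Casp4 levels are given as such a gene, and Ggnbp1 for its overlap with Bak1. Sequences and positions are from GENCODE M21 and RefSeq, in which all 10 genes were found. Protein sequences were not used here.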

Additional observations from a re-analysis of the deposited data

How the results depend on the processing

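The number of genes called was 424 with DESeq2, 19 with upper-quartile factors, 104 with limma and 1273 with a term for animal numbers, against 59, and ran from 3 to 164 with 1 mouse left out (3 without control 1872 or 1874, 4 without 1931, 8 without 1936, 10 without control 1934, 18 without 1932 and 164 without control 1827). Calls were higher in CSF1 OE mice for 88.1% in edgeR, 63.2% with DESeq2 and 23.7% with the term for animal numbers. Of the 10 genes, 3 were called with DESeq2, 1 with limma and 2 with the animal term, and 0 with any mouse left out. The Bcl2a1 sum was called with DESeq2 (log2 fold change 1.25, adjusted p = 0.00503) and with the animal term in edgeR (1.54, adjusted p = 0.03). Whichever mouse was left out, the sum was not called (1.01 to 1.48, adjusted p from 0.0611 to 0.296 in edgeR). Bcl2 changed sign without control 1934 (0.04), 1932 (0.017) or 2019 (0.0065), within a range of -0.086 to 0.04, Bax without control 1874 (-0.002, within -0.002 to 0.1), and Bbc3 with the animal term (-0.045). The cause was not tested. The other 7 genes and the sum kept their direction in all 15 alternatives. The lowest count of any of the 10 genes was 56, for Bcl2a1a.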
